A study of Mus musculus with 8 samples.

Results

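The genes described here encode the machinery of the lysosome: hydrolases of its lumen, the activator and lipid carrier proteins that assist them, membrane proteins and transporters, and subunits of the proton pump that acidifies it. The members are 36 genes, set beside 12393 genes named on the array, and every probe set (the group of short probes that measures 1 transcript on an Affymetrix array) annotated to 1 of them by symbol or synonym was taken, 60 of 22690 in all. Of the 36 genes, 34 had such a probe set, and Arsb and Cd63 had none named in the annotation used here. A gene with several probe sets is represented by the one of highest mean intensity over the 8 arrays, and its others are described separately.

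RNA came from CD45+/Sca1+ cells, which carry CD45, the common antigen of blood-derived cells, and Sca1, an antigen of mouse stem cells that various mature cells share. All cells were from C57BL/6 mice of 6 to 8 weeks and formed 4 groups of 2 arrays: bone marrow (BM), muscle without injury, muscle injured with cardiotoxin (Ctx, a venom peptide that kills muscle fibres), and Ctx-injured muscle taken after a bone marrow transplant (BMT). The groups are called bone marrow, uninjured muscle, injured muscle and transplanted injured muscle. The time after injury, the transplant's donor and the number of animals behind an array were not stated in the labels used here, so the p-values speak for the spread of these arrays alone, and that spread can be technical.

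Lysosomes take apart proteins, glycans, lipids and nucleic acids that reach them by endocytosis, phagocytosis or autophagy. Their enzymes work at acid pH, which the vacuolar ATPase sets by pumping protons across a membrane lined with heavily glycosylated proteins such as Lamp1 and Lamp2. Macrophages, which engulf dead cells and debris, are rich in lysosomes, and loss of single lysosomal enzymes causes storage diseases. Many lysosomal genes carry near their start a palindromic sequence built on CACGTG, which the transcription factor TFEB and its relatives TFE3, TFEC and MITF recognise.

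Values are array intensities on a linear scale, given for replicates 1 and 2 of a group in that order, and log2 fold changes are on the scale log2(intensity + 4), each with its standard error (SE) from limma. A gene passed the test, and is said to be higher or lower or to have risen or fallen, when its Benjamini-Hochberg adjusted p over all tested probe sets was under 0.05. All 34 measured members passed the filter on dim probe sets. The arrays differed in RNA quality: the 3'-end signal of Gapdh divided by its 5'-end signal lay between 10.7 and 46.9 on the bone marrow and uninjured muscle arrays, highest on uninjured muscle replicate 1, while each of the 4 injured arrays had between 0.808 and 0.882. In uninjured muscle 27 of 34 members were lower on replicate 1 than on replicate 2. There 9 differed between the 2 arrays by more than 1 on the log2 scale, against 3 in bone marrow and 0 in either injured group. The shares of all genes were not counted. The median intensity of all probe sets in uninjured muscle was 67.0 on replicate 1 and 75.7 on replicate 2. Ptprc, the gene of CD45, had intensities of 4924 to 6996 over the 8 arrays; Ly6a, the gene of Sca1, was not analysed here.

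The levels of cell type markers also differed between groups. The summed intensity of 14 measured monocyte and macrophage markers, out of 15 listed, was 8488 and 9128 in the marrow, 35784 and 55115.5 in muscle without injury, 106567 and 113866 in injured muscle and 91213 and 94530 in transplanted injured muscle. That of 9 measured neutrophil markers, out of 10 listed, came to 42152 and 53426 in the marrow and to 17536.5 and 31112 in uninjured muscle, and each injured array had between 404 and 716, where Ngp, Camp, Ltf and Elane were under 38.4 (the filter value) on every array. Markers of cells outside the blood lineages were also present: the sum over 8 fibroblast markers was 9756 and 32854 in uninjured muscle, 22751.5 and 22908 in injured muscle, 4407 and 4762 after transplant, and 1028 and 2078 in the marrow, and that over 8 endothelial markers was 9301 and 12474 in uninjured muscle but 963 or less on every other array. In sorted bulk cells, more cells of a type and more RNA per cell cannot be told apart, so a higher lysosomal level is not shown to be a change within a cell.

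On all 4 injured arrays 19 of the 34 members lay above all 4 arrays of bone marrow and uninjured muscle, and 0 lay below; of all genes tested 14.8% lay above and 24.1% below. Transplanted injured muscle had the highest group mean for 19 members and bone marrow the lowest for 20, and the shares of all genes were not counted. Among the exceptions, by the brightest probe set, Lamp2 was highest in uninjured muscle on both arrays. Gm2a and Scarb2, by theirs, were lowest in transplanted injured muscle on both. By another probe set Gm2a had 251 and 265 in transplanted injured muscle against 64.9 and 92.0 in bone marrow. Scarb2 by its other had 1029 and 953 against 520 and 471. Another Lamp2 probe set was highest in transplanted injured muscle, with 559 and 691 against 301 and 162 in uninjured muscle. The heat map of the members by array shows the levels by the brightest probe set.

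**Figure D1:**
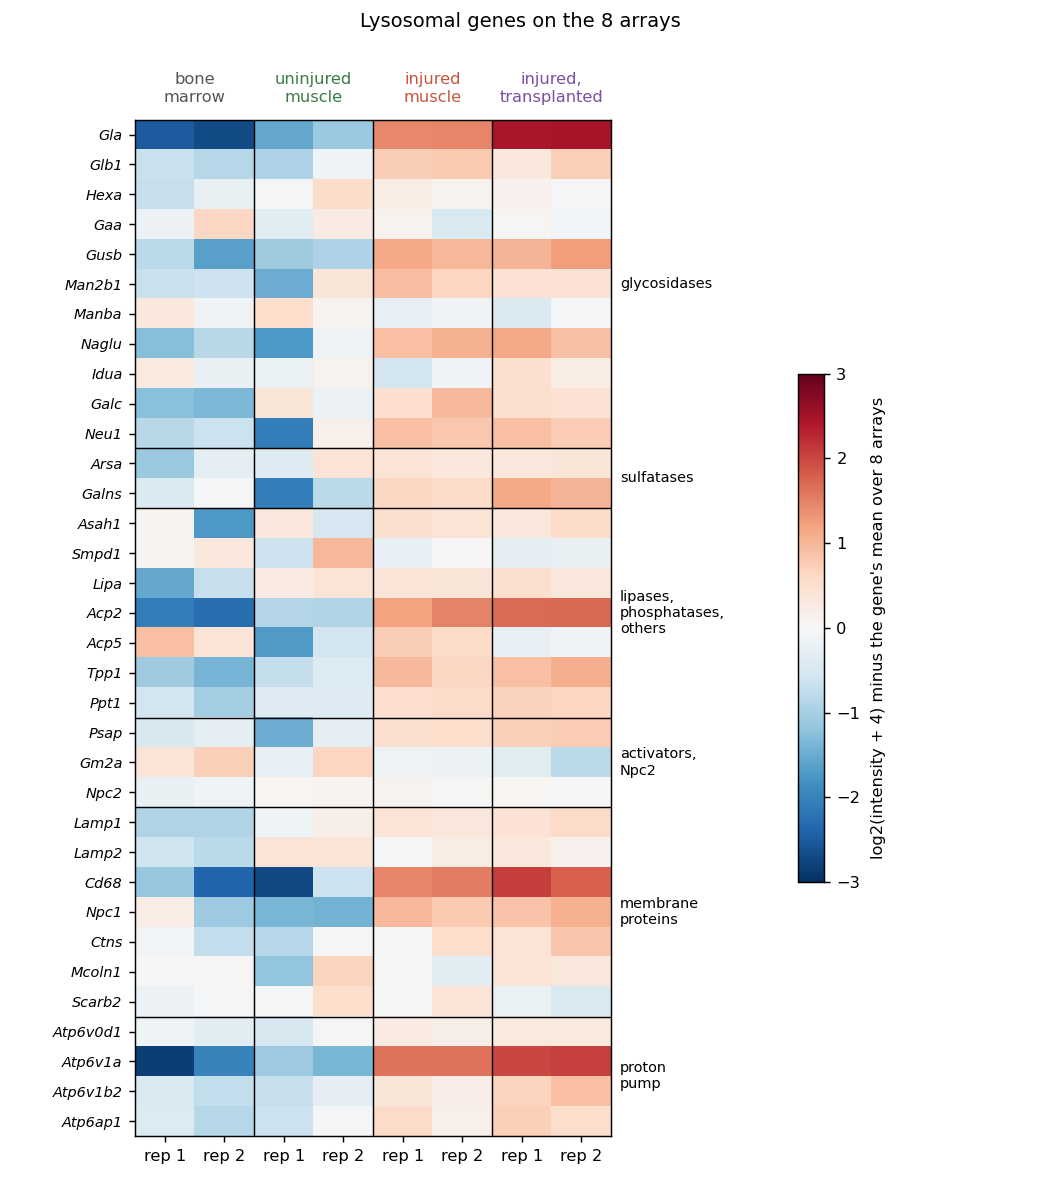
Heat map of 34 lysosomal genes (rows, by class) on the 8 arrays (columns, by group), coloured by log2(intensity + 4) minus the gene's mean over the 8 arrays; values beyond 3 take the end colour. Gla, Acp2, Cd68 and Atp6v1a are low in bone marrow and uninjured muscle and high on the 4 injured arrays. Uninjured muscle replicate 1 is lower than replicate 2 for 27 of the 34 genes, and the share of all genes was not counted.

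The CACGTG core was looked for on both strands (it reads the same on each) in the 300 bases from 250 before to 50 after each RefSeq start site (GRCm38.p6). Of 32 members with an entry, 9 (28.1%) held it, compared with 8.09% of 27025 genes, and 9 of their 36 promoters (25%) with 7.15% of all 32851. The longer TCACGTGA was present for 4 of the 32, namely Gla, Atp6v1a, Atp6v0d1 and Mcoln1, compared with 1.12% of all genes, and the full 10-base consensus, that sequence between G and C, for 0 of 32 compared with 0.37%. These matches overlap by construction, and a match describes letters only. The stretches below, all upstream of the start site, belong to the 5 members that hold the core and passed the test in at least 1 comparison; capitals mark the core, and each sequence runs 5' to 3' on the strand of the gene.
Gla (chrX:134601174-134601252, minus strand): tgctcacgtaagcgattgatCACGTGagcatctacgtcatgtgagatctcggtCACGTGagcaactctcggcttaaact
Atp6v1a (chr16:44139365-44139410, minus strand): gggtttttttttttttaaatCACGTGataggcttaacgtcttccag
Lamp1 (chr8:13159080-13159160, plus strand): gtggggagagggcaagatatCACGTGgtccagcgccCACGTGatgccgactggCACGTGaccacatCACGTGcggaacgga
Naglu (chr11:101070001-101070046, plus strand): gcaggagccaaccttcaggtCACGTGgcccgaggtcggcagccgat
Glb1 (chr9:114401010-114401055, plus strand): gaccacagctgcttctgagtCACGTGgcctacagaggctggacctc
Lamp1 held 4 cores within 61 bases of its start and Gla held 2, at 227 and 194 bases before it. Gla and Atp6v1a were also the members with the largest log2 fold changes between transplanted injured muscle and bone marrow (5.06 and 4.44), while Atp6v0d1 and Mcoln1, the other two with TCACGTGA, had 0.53 and 0.36 and did not pass. Of the members with a promoter and a measured level, 5 of 9 with the core and 10 of 21 without it were higher in that comparison, where 12% of all genes were, with median log2 fold changes of 1.27 and 1.08; whether these groups differ was not tested.

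Uninjured muscle was set against bone marrow to ask how the lysosomal genes of such cells differ between the tissues at rest. Of 34 members, 5 were higher (14.7%), 1 was lower (2.94%) and 28 did not pass; over all 9506 genes tested 5.85% were higher and 1.4% lower. The median log2 fold change was 0.21 over the members and -0.06 over all genes. The 6 members were a glycosidase (Gla), a lipase (Lipa), both lysosomal phosphatases on the list (Acp2 higher, Acp5 lower), and the membrane proteins Lamp1 and Lamp2.

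Lipa, the acid lipase that frees cholesterol and fatty acids from ingested lipoprotein, had 527 and 956 on the marrow arrays against 1811 and 2016 in uninjured muscle (log2 fold change 1.42, SE 0.30, adjusted p = 0.0313 by limma). The groups did not overlap, and its other 2 probe sets had log2 fold changes of 1.60 and 0.93. Lamp1, a main glycoprotein of the lysosomal membrane, had 3364 and 3321 on the marrow arrays against 5686 and 7062 in uninjured muscle (log2 fold change 0.92, SE 0.17, adjusted p = 0.017 by limma). Lamp2, its relative with a role in chaperone-mediated autophagy, had 1185 and 1017 against 2390 and 2337 in muscle (log2 fold change 1.10, SE 0.23, adjusted p = 0.0268 by limma).
Acp5, the tartrate-resistant acid phosphatase known from osteoclasts, went the other way, with 750 and 521 on the marrow arrays against 119 and 269 in uninjured muscle (log2 fold change -1.78, SE 0.42, adjusted p = 0.0464 by limma). The other acid phosphatase gene, Acp2, had 72.2 and 63.1 against 171 and 168 (log2 fold change 1.28, SE 0.29, adjusted p = 0.0406 by limma), and the glycosidase gene Gla 65.7 and 56.8 against 131 and 178 (1.27, SE 0.30, adjusted p = 0.0447 by limma). For each of the 6 genes both muscle arrays lay on the same side of both marrow arrays, as they did for 45.7% of all genes tested. These members had 8 other tested probe sets, of which 8 had the same direction and 1 passed. By its other probe set, at intensities of 1.86 to 8.04, Gla had 0.36 and did not pass.

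None of these 6 calls was made under all 19 alternatives. All 6 were lost without bone marrow replicate 1, without either injured muscle array, with no intensity trend, and with only the 4 arrays compared. Without bone marrow replicate 2 there were 2 members higher, without either transplanted array 1, and without uninjured muscle replicate 1 or 2 there were 7. The 1 lower member became 6 without uninjured muscle replicate 2 and 0 without any other array. Of the 14 macrophage markers 12 were higher and 0 lower in uninjured muscle, and so were 7 of 8 fibroblast, 6 of 8 endothelial, 6 of 8 muscle fibre and 4 of 7 mast cell markers; their part in the lysosomal values was not tested.

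What changes in muscle after injury was asked by comparing injured with uninjured muscle. Of 34 members, 13 were higher after injury (38.2%), 0 were lower and 21 did not pass; over all genes tested 8.77% were higher and 15.1% lower. Without adjustment, at p under 0.05, the counts were 17 and 0, and the share of all genes at that threshold was not counted. The median log2 fold change was 0.69 over the members and -0.25 over all genes. The higher members were 4 of 11 glycosidases, 1 of 2 sulfatases, 4 of 7 other hydrolases, 1 of 3 activator and carrier proteins, 2 of 7 membrane proteins and 1 of 4 proton pump subunits.

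Among the glycosidases, Gla, the alpha-galactosidase missing in Fabry disease, had 131 and 178 in uninjured and 1069 and 1078 in injured muscle (log2 fold change 2.78, SE 0.30, adjusted p = 0.00139 by limma). Gusb, the beta-glucuronidase, had 541 and 594 before and 2543 and 2274 after injury (log2 fold change 2.08, SE 0.31, adjusted p = 0.00413 by limma). For both genes the injured arrays lay far above the uninjured ones, and both passed under all 19 alternatives. Naglu, which removes N-acetylglucosamine from heparan sulfate, had 61.4 and 190 in uninjured and 404 and 451 in injured muscle (log2 fold change 1.93, SE 0.51, adjusted p = 0.0272 by limma). Glb1, the beta-galactosidase, had 169 and 300 against 545 and 555 after injury (log2 fold change 1.27, SE 0.36, adjusted p = 0.0354 by limma). In the sulfatase class Galns, which acts on keratan sulfate and chondroitin sulfate, had 85.0 and 209 against 576 and 556 (log2 fold change 2.05, SE 0.43, adjusted p = 0.0123 by limma). Neu1, a sialidase, and Man2b1, an alpha-mannosidase, had log2 fold changes of 1.81 and 1.34 and did not pass; on uninjured muscle replicate 1 they stood at 73.5 and 1056, and on replicate 2 at 358 and 3810.

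Acp2, a lysosomal acid phosphatase, had 171 and 168 in uninjured and 740 and 895 in injured muscle (log2 fold change 2.23, SE 0.29, adjusted p = 0.00247 by limma). Its uninjured arrays agree closely, and the call was made under all 19 alternatives. Acp5, lower in uninjured muscle than in marrow, was 668 and 593 after injury (log2 fold change 1.79, SE 0.42, adjusted p = 0.0183 by limma), a level that overlapped that of bone marrow. Tpp1, a tripeptidyl peptidase lost in a childhood neuronal storage disease, had 1417 and 1758 before and 4641 and 3586 after injury (log2 fold change 1.37, SE 0.24, adjusted p = 0.007 by limma). Ppt1, the thioesterase that takes palmitate off proteins, rose by 0.92 on the log2 scale, from 632 and 639 to 1179 and 1231 (SE 0.27, adjusted p = 0.0379 by limma). Lipa, at 2005 and 1986, had a log2 fold change of 0.06 and did not pass.

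Psap, the precursor of the saposins that present sphingolipids to their hydrolases, had 3388 and 7906 in uninjured and 13344 and 13798 in injured muscle (log2 fold change 1.39, SE 0.34, adjusted p = 0.0204 by limma). Cd68, a glycoprotein of macrophage endosomes and lysosomes, had 484 and 2024 before and 8829 and 9166 after injury (log2 fold change 3.18, SE 0.63, adjusted p = 0.00994 by limma). Its uninjured arrays differed widely from each other, and both were far below the injured ones. Npc1, the membrane protein that exports cholesterol from the lysosome, had 105 and 100 against 545 and 479 (log2 fold change 2.27, SE 0.44, adjusted p = 0.00908 by limma). Its soluble partner Npc2, by its brighter probe set, was nearly level over all 8 arrays, between 8186 and 10281 (log2 fold change 0.01 after injury). The other Npc2 probe set had 0.52 after injury and did not pass.

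In the proton pump, Atp6v1a, the catalytic subunit that splits ATP, had 441 and 360 in uninjured and 2911 and 2948 in injured muscle (log2 fold change 2.86, SE 0.32, adjusted p = 0.00158 by limma), and passed under all 19 alternatives. Atp6v1b2, the other large subunit of the ATP-splitting head, had 1082 and 1447 against 2244 and 1992 and just missed the threshold (log2 fold change 0.75, adjusted p = 0.0579 by limma). Atp6ap1, an accessory protein of the pump, and Atp6v0d1, of its membrane part, had log2 fold changes of 0.70 and 0.46 and did not pass, although the injured arrays of all 4 pump genes lay above the uninjured ones; the groups did not overlap for 64.5% of all genes tested.

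Of the 13 calls, 4 (Gla, Gusb, Acp2 and Atp6v1a) were made under all 19 alternatives. The 13 members had 8 other tested probe sets, of which 8 had the same direction and 5 passed. Those that did not pass belonged to Acp2 (0.60, adjusted p = 0.166 by limma), Atp6v1a (1.13, adjusted p = 0.0742 by limma) and Tpp1 (0.87). The count was 4 without injured muscle replicate 1 and 5 without replicate 2, 19 without uninjured muscle replicate 2, 12 without its replicate 1, and 7 with only the 4 arrays compared. The calls of Glb1, Naglu, Galns, Acp5, Ppt1, Psap, Cd68 and Npc1 were lost without either injured muscle array and that of Tpp1 without replicate 1; those of Glb1, Naglu and Ppt1 were also lost without either transplanted array, and that of Glb1 without uninjured muscle replicate 1. Of the 14 macrophage markers 9 were higher and 1 lower after injury, all 9 neutrophil markers, 7 of 8 endothelial and 6 of 8 muscle fibre markers were lower, and Gapdh 3'/5' was 46.9 and 13.6 in uninjured against 0.833 and 0.808 in injured muscle; the part of these in the lysosomal values was not tested.

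**Figure D2:**
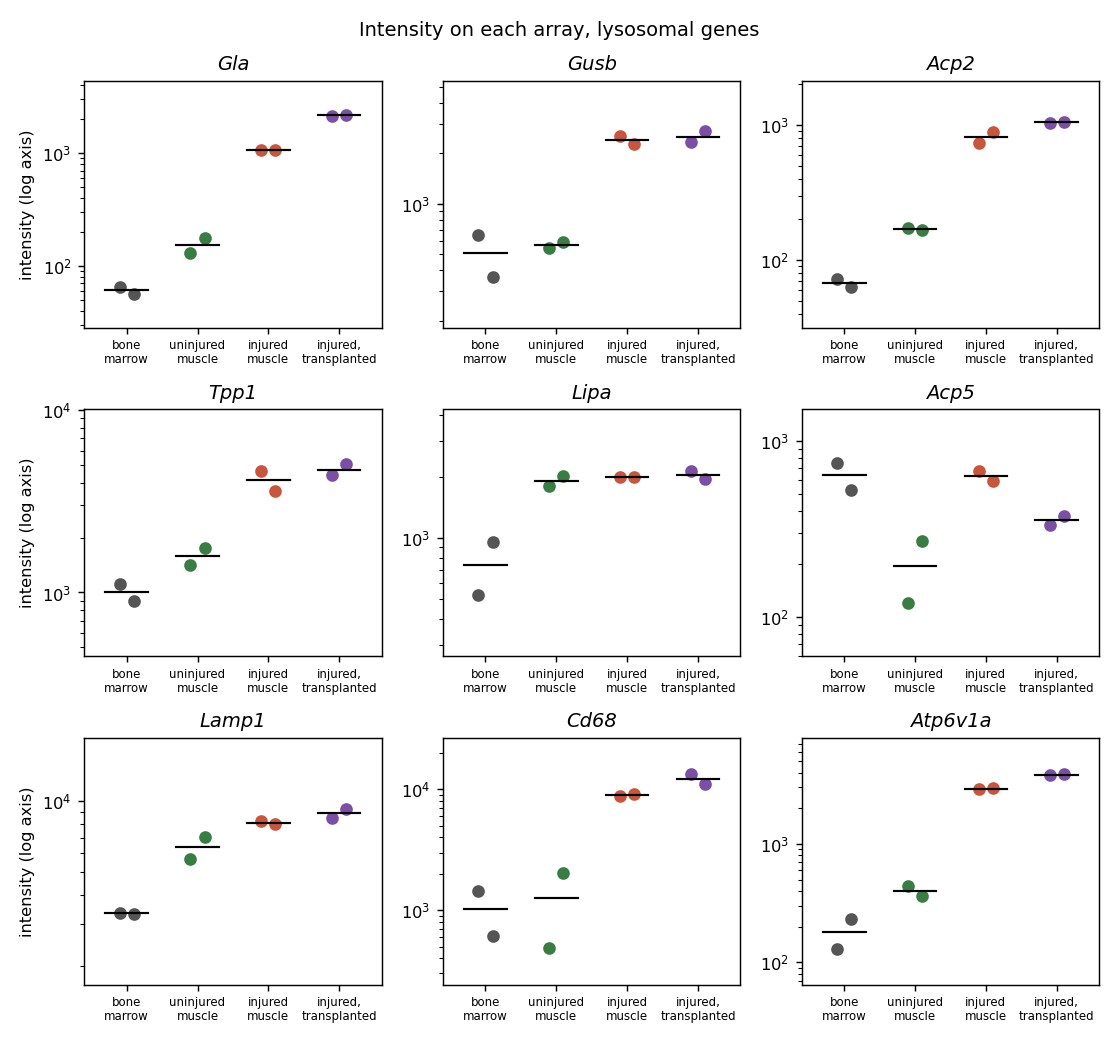
Intensity (log axis) of 9 lysosomal genes on each of the 8 arrays, with points for arrays, lines for the mean of the 2 arrays of a group, and groups along the horizontal axis. Gla, Gusb, Acp2, Tpp1, Cd68 and Atp6v1a are higher on all 4 injured arrays than on the other 4, Lipa and Lamp1 are already higher in uninjured muscle than in bone marrow, and Acp5 is lowest in uninjured muscle.

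Whether a marrow transplant alters these genes in injured muscle was asked by comparing both injured groups. In limma 0 of 34 members were higher and 0 lower, where 0.0421% and 0.274% of all genes were. Without adjustment, at p under 0.05, for which the share of all genes was not counted, the counts were 1 and 0. That member was Gla, with 1069 and 1078 in untransplanted and 2139 and 2185 in transplanted injured muscle (log2 fold change 1.01, SE 0.30, 95% interval 0.33 to 1.69, adjusted p = 0.282 by limma). The 2 groups of Gla did not overlap and each was tight, yet the difference did not pass the correction. By its other probe set Gla had 303 and 249 against 335 and 419 in the transplanted group. That log2 fold change was 0.44 (95% interval -0.58 to 1.47) and did not pass. Acp5 lay in the other direction, with 668 and 593 against 333 and 371 in the transplanted group (log2 fold change -0.83, 95% interval -1.80 to 0.13). With only these 4 arrays in the fit, 1 member was higher and 1 was lower.

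The intervals of the transplant difference were narrower for some members than for others. The spread behind each was estimated over all 8 arrays, so it also holds that of bone marrow and uninjured muscle. For Cd68 those groups had 1440 and 606, and 484 and 2024. Its values were 8829 and 9166 in injured and 13331 and 11052 in transplanted injured muscle. The 95% interval of the log2 fold change was -0.34 to 0.28 for Npc2, -0.26 to 0.52 for Lamp1 and -0.35 to 0.77 for Tpp1. It was -1.01 to 1.88 for Cd68 and -0.72 to 1.78 for the cation channel gene Mcoln1. These intervals hold for 1 probe set per gene. By another, Npc2 had 0.22 (-0.2 to 0.63) and Tpp1 -0.2 (-1.0 to 0.6). In this comparison 8 of 19 members with several tested probe sets had both signs. Of the members' further probe sets 65.2% had the sign of the brightest one, and over all named genes 65.7% did. The replicates of both injured groups agreed closely, with a median difference between the 2 arrays of 0.15 on the log2 scale in each, against 0.36 in bone marrow and 0.56 in uninjured muscle. The groups did not overlap for 18 of the 34 members (52.9%) and for 51.8% of all genes tested. Among the markers, 3 of 7 of mast cells, 2 of 8 of muscle fibres and 1 of 14 of macrophages (F13a1) were lower after transplant, and their part in these values was not tested.

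How far cells of transplanted injured muscle stand from the marrow was asked by comparing these groups. Of 34 members, 18 were higher (52.9%), 1 was lower (2.94%) and 15 did not pass; over all genes tested 12% were higher and 19.5% lower. The median log2 fold change was 1.26 over the members and -0.32 over all genes. The groups did not overlap for 31 of the 34 members and for 72.7% of all genes. The higher members were 5 of 11 glycosidases, 1 of 2 sulfatases, 4 of 7 other hydrolases, 1 of 3 activator and carrier proteins, 4 of 7 membrane proteins and 3 of 4 pump subunits. This comparison shares its transplanted arrays with the previous one and its marrow arrays with the first.

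Gla had 65.7 and 56.8 in bone marrow against 2139 and 2185 (log2 fold change 5.06, SE 0.30, adjusted p = 5.64e-05 by limma), a 33.3-fold difference. Atp6v1a had 130 and 231 against 3784 and 3918 (log2 fold change 4.44, SE 0.32, adjusted p = 0.000105 by limma), or 21.7-fold. For Acp2 the values were 72.2 and 63.1 against 1034 and 1060 (log2 fold change 3.88, SE 0.29, adjusted p = 0.000125 by limma), or 14.7-fold. For all 3 genes the marrow arrays lay far below the transplanted ones. By their other probe sets, which also passed, the difference was 5.13-fold for Atp6v1a and 13.6-fold and 3.59-fold for Acp2. For Gla it was 48.6-fold, with 1.86 and 6.40 in bone marrow. Cd68 was 12.9-fold higher, with 1440 and 606 in bone marrow and 13331 and 11052 in transplanted injured muscle (SE 0.63 on the log2 scale, adjusted p = 0.00366 by limma).
Gusb, with 651 and 364 in marrow against 2329 and 2705, rose 5.12-fold, and Tpp1, with 1118 and 895 against 4401 and 5040, rose 4.69-fold. Lamp1 rose 2.65-fold, Atp6v1b2 2.63-fold and Ppt1 2.78-fold; with the 6 genes named before them, they make up the 9 calls made under all 19 alternatives.

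The other higher members were Galc, the galactosylceramidase lacking in Krabbe disease (log2 fold change 1.75), Naglu (2.08), Glb1 (1.27), Galns (1.31), Lipa (1.52), Psap (1.11), Lamp2 (0.92), Npc1 (1.40) and Atp6ap1 (1.25). The lower member was Gm2a, the activator that presents GM2 ganglioside to hexosaminidase, with 1915 and 2377 in bone marrow and 1124 and 826 in transplanted injured muscle (log2 fold change -1.14, SE 0.34, adjusted p = 0.0338 by limma). The enzyme subunit it serves, Hexa, had a log2 fold change of 0.48 and did not pass. A second Gm2a probe set was higher and another Lamp2 probe set was lower (log2 fold change -1.11), as described with the probe sets.

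The count of 18 was 9 without transplanted replicate 1, 11 without replicate 2 and 12 without bone marrow replicate 2. Without bone marrow replicate 1 it was 15. The Gm2a call was lost without any 1 of the bone marrow, transplanted or injured muscle arrays. The calls of Glb1, Galns and Psap were likewise lost without any 1 of these 6 arrays, that of Npc1 without any of them but bone marrow replicate 1, and those of Lamp2 and Atp6ap1 without bone marrow replicate 2 or either transplanted array. Naglu lost its call without bone marrow replicate 1 or either transplanted array, and Lipa and Galc without transplanted replicate 1. All 14 macrophage and 6 of 8 fibroblast markers were higher, and all 9 neutrophil, 7 of 7 B cell, 7 of 8 T and natural killer cell and 7 of 8 stem and progenitor markers were lower. The 3'/5' ratio of Gapdh stood at 24.4 and 10.7 in marrow against 0.882 and 0.868; the part of these in the lysosomal values was not tested.

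**Figure D3:**
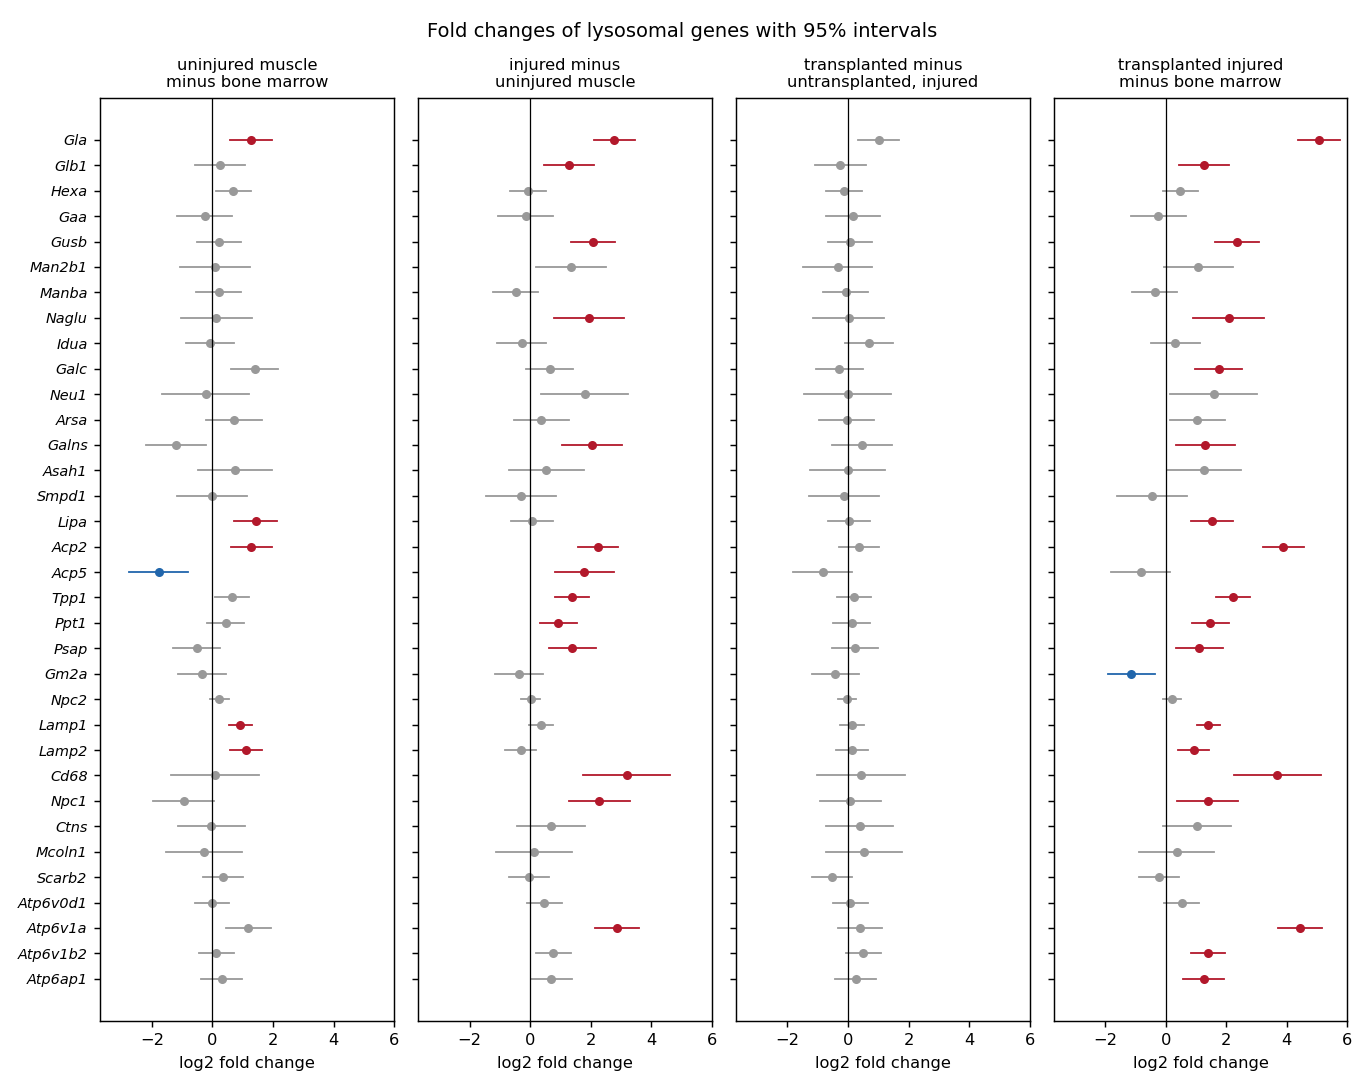
Log2 fold change (points) with 95% interval (lines) of 34 lysosomal genes in 4 comparisons; red marks genes higher and blue genes lower at a limma adjusted p under 0.05, and grey the rest. The third panel, transplanted against untransplanted injured muscle, has no coloured gene, and the fourth has 18 red ones and 1 blue.

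Members that passed in none of the 4 comparisons included several whose enzymes act beside those that rose. Hexa had 2772 to 6491 over the 8 arrays, the alpha-glucosidase gene Gaa 268 to 578, and the beta-mannosidase gene Manba 312 to 613. Idua, which removes iduronic acid from glycosaminoglycans, ranged from 185 to 384, and Smpd1, the acid sphingomyelinase, from 149 to 466. Arsa, the sulfatase of sulfatide, ranged from 157 to 456, Man2b1 from 1056 to 5616, Neu1 from 73.5 to 605 and the ceramidase gene Asah1 from 836 to 4114. Among membrane proteins Scarb2, the carrier of glucocerebrosidase, ranged from 973 to 1929, Mcoln1 from 130 to 476 and the cystine exporter Ctns from 22.4 to 80.2; Atp6v0d1 ranged from 1009 to 1720. Ctns was under 38.4 on 2 of the 8 arrays.

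Probe sets of the same gene differed in the size of the change, and for some members in its direction. For 19 members 23 further probe sets were tested. The log2 fold changes of 1 gene's probe sets had both signs for 5 of 19 members after injury (Gm2a, Idua, Lamp2, Mcoln1 and Scarb2). Against bone marrow they had both signs for 5 as well (Gm2a, Lamp2, Man2b1, Mcoln1 and Scarb2). Probe sets that passed in both directions were found for Gm2a and Lamp2, in the latter comparison. Of the members' further probe sets 78.3% had the sign of the brightest one in each of these comparisons. Over all named genes 58.4% did after injury and 62.5% against bone marrow. After injury Psap had a log2 fold change of 1.39 by its brighter and 4.94 by its dimmer probe set, where uninjured muscle gave 117 and 997 and injured muscle 10255 and 11074. Gusb had 2.08 and 4.46, Ppt1 0.92 and 2.48, and Atp6v1b2, which passed only by its second probe set, 0.75 and 3.50. The second probe set was the smaller, and did not pass, for Tpp1 (1.37 and 0.87) and Atp6v1a (2.86 and 1.13). Scarb2, Galc and Gm2a likewise passed after injury only by a second probe set (1.13, 2.02 and 2.33). In all, 17 members had a probe set that was higher after injury and none that was lower, and 1, Lamp2, the reverse. The share of all genes by this looser rule was not counted. After injury 65.2% of the members' further probe sets lay above the brightest one, with a median difference of 0.26 on the log2 scale. Over all named genes 59.5% did, with a median difference of 0.36, so larger changes by dimmer probe sets were not particular to the members.

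Lamp2 makes several splice forms with different last exons, and which of them its 4 probe sets measure was not determined here. Against bone marrow, 3 of them were higher in transplanted injured muscle (log2 fold changes 0.92, 1.36 and 2.92) and 1 was lower, with 2103 and 2177 in marrow and 1038 and 941 in transplanted injured muscle (log2 fold change -1.11). That probe set also fell after injury, from 2675 and 3521 to 1072 and 1098 (log2 fold change -1.50). For Gm2a the brighter probe set was lower and the other higher against bone marrow (-1.14 and 1.69), the other with 64.9 and 92.0 in marrow and 251 and 265 in transplanted injured muscle. Scarb2 had -0.22 by its brightest and 0.99 by its other probe set, which passed. Idua and Npc2 were also higher against bone marrow only by their other probe set (1.49 and 0.78). Direction is therefore not settled for Gm2a and Lamp2, nor for the other members whose probe sets had both signs.

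**Figure D4:**
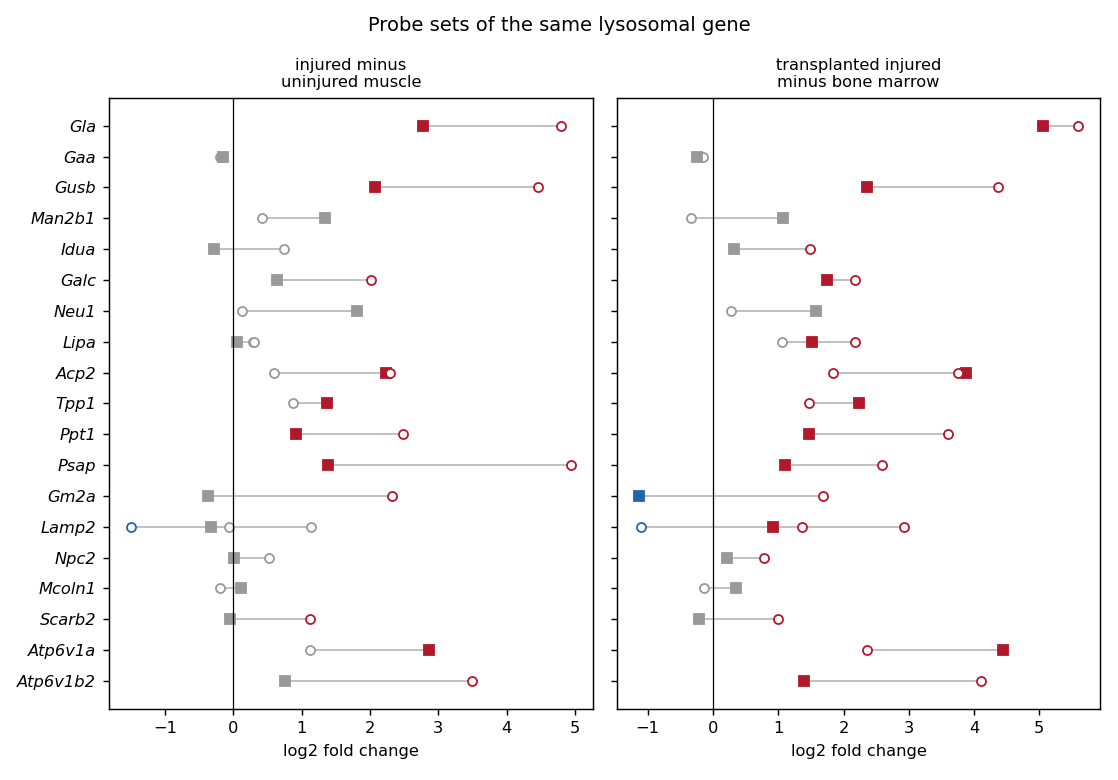
Log2 fold changes of all tested probe sets of the 19 members with more than 1, in injured minus uninjured muscle (left) and transplanted injured muscle minus bone marrow (right); filled squares mark the probe set with the highest mean, open circles the others, red higher, blue lower and grey not passing. Psap, Gusb and Atp6v1b2 spread by more than 2 after injury, and Gm2a and Lamp2 have probe sets on both sides of 0.

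Other genes of the lysosomal pathway were taken from 5 lists, whose counts stand beside 8.77% of all genes higher and 15.1% lower after injury, and 12% higher and 19.5% lower against bone marrow. After injury, 3 of 10 measured further hydrolases were higher and 0 lower, among them Scpep1, a serine carboxypeptidase, with 273 and 869 before and 2881 and 3282 after (log2 fold change 2.65, adjusted p = 0.00707 by limma), and Lgmn, the asparaginyl endopeptidase that activates cathepsins, with 1333 and 3440 against 6844 and 6306 (1.61, adjusted p = 0.0483 by limma). The third was the fucosidase gene Fuca1 (0.90). Of 14 further membrane proteins 4 were higher and 1 lower: Slc11a1, a metal transporter of phagosomes, had 228 and 668 against 1875 and 1863 (2.25, adjusted p = 0.0112 by limma), Clcn7, the chloride and proton exchanger, rose by 1.55 on the log2 scale, and Laptm4b fell by 2.23 on that scale. The other 2 higher genes were Slc15a3 and Tmem192. Against bone marrow, transplanted injured muscle had 4 of the 10 hydrolases higher and 0 lower, among them Lgmn (log2 fold change 4.58). Of the 14 membrane proteins 5 were higher (35.7%), among them Slc11a1 (4.24), and 2 were lower (14.3%).

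Of 13 further pump subunits 3 were higher and 0 lower after injury, all from the cytosolic part: Atp6v1f (log2 fold change 1.47), Atp6v1g1 (1.37) and Atp6v1c1 (0.80). Against bone marrow, transplanted injured muscle had 4 of these 13 higher, with Atp6v1g1 at 471 and 652 against 2425 and 2529 (2.15, adjusted p = 0.000885 by limma) and Atp6v1c1 at 1174 and 1146 against 3581 and 3448 (1.60, adjusted p = 0.0014 by limma). Of 16 genes that sort proteins to lysosomes 3 were higher (18.8%) after injury, led by Gnptab, which makes the mannose 6-phosphate tag (1.91), and Vps41, of a complex that tethers late endosomes to lysosomes (1.69). Against bone marrow 4 of the 16 were higher (25%) and 3 lower (18.8%), the latter share close to the 19.5% of all genes, with Igf2r, the receptor for that tag, up by 2.71 on the log2 scale, and the sorting receptor Sort1 and the adaptor Gga2 down (-2.26 and -1.75). In uninjured muscle against bone marrow 1 of the further hydrolases, Lgmn, was higher (2.53), Gga2 was lower (-1.43), and 0 of the further membrane proteins and pump subunits passed.

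Of the transcription factors that recognise the CACGTG sequence, 5 of 6 were measured. Mitf had 62.0 and 51.5 in the marrow, then 317 and 326 in uninjured muscle, 627 and 559 in injured and 988 and 787 in transplanted injured muscle. Mitf was thus higher in uninjured muscle than in the marrow (log2 fold change 2.43, SE 0.30, adjusted p = 0.00287 by limma) and did not pass after injury (0.87, adjusted p = 0.0646 by limma). Tfec had 78.9 and 64.3, 75.4 and 120, 313 and 294, and 226 and 222 in the same order of groups, and was higher after injury (1.63, SE 0.35, adjusted p = 0.013 by limma). Both were higher in transplanted injured muscle than in bone marrow, Mitf by 3.87 (adjusted p = 0.000139 by limma) and Tfec by 1.6 (adjusted p = 0.0104 by limma). Tfeb, Usf1 and Usf2 passed in none of the 4 comparisons. In transplanted against untransplanted injured muscle 0 genes of the 5 lists passed in limma. At an unadjusted p under 0.05 there were 2 higher among the pump subunits, 1 lower among the hydrolases and 0 in the other 3 lists. The share of all genes at that threshold was not counted.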

How the data were processed

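RNA of CD45+/Sca1+ cells, 1 µg per array, was labelled with biotin and hybridised to Affymetrix Mouse430A arrays, per the labels' protocols. The deposited values are linear intensities, 1 per probe set, and GCOS is named in the submitters' processing notes without a version; the summary method, the scaling and the genome build are not stated in the labels. The number of arrays, 2 per group, limits the precision.

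Of 22626 probe sets that are not controls, 20380 had 1 gene symbol in the platform annotation, 691 several and 1555 none; 20351 symbols were updated through gene identifiers. Values under 1 were set to 1, 4 was added (about the 10th percentile) and log2 taken. Probe sets that reached the 40th percentile (38.4) on 2 of 8 arrays or more were fitted with limma 3.58.1 in R 4.3.3 (lmFit and eBayes with an intensity trend), with 1 mean per group over all 8 arrays, 4 residual and 4.07 prior degrees of freedom, two-sided tests and Benjamini-Hochberg adjustment over all tested probe sets. The script was tested on simulated data. The 19 alternatives changed normalization, pseudocount, filter, probe set rule, variance model, arrays in the fit or pairing, or left out 1 array.

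The members and lists were chosen with earlier results of these data known. Fuller values are given for most members with the smallest adjusted p in a comparison or that passed in 2 or more. Of each other list a selection of the genes that passed is named. Promoters are RefSeq's, of GRCm38.p6.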

Additional observations from a re-analysis of the deposited data

How the results depend on the processing

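Of 722 values of single members that passed, recomputed under the 19 alternatives, 576 kept direction and side of the threshold, 145 kept direction only and 1 reversed: Gm2a in transplanted injured muscle against bone marrow, 0.27 on the log2 scale with the mean of all probe sets, since its probe sets differ in direction. For uninjured muscle against bone marrow, the 5 members higher became 2 with median centring, 3 with the pseudocount at the median, 2 with the mean of all probe sets, and 0 with only the 4 arrays compared or no intensity trend. The 1 lower member became 0 with quantile or cyclic loess normalization, no filter, only the 4 arrays compared or no intensity trend. For injured against uninjured muscle, the 13 higher became 7 with only the 4 arrays compared, and the 0 lower became 1 with quantile or cyclic loess normalization. Between the injured groups, 0 became 1 higher and 1 lower with only the 4 arrays compared. Against bone marrow, the 1 lower in transplanted injured muscle became 2 with cyclic loess normalization and 0 with the mean of all probe sets or no intensity trend. For the moved counts the cause was not tested. Leaving out 1 array at a time gave 0 to 7 higher and 0 to 6 lower in uninjured muscle against bone marrow, 4 to 19 and 0 to 1 after injury, 0 to 0 in both directions between the injured groups, and 9 to 22 and 0 to 2 in transplanted injured muscle against bone marrow. Where a group keeps 1 array, that array is assumed to vary like the others. Median centring moved the median of all genes by -0.18, 0.15, 0.13 and 0.10 in the 4 comparisons in that order. No member that passed changed sign under another normalization, but some no longer passed. With quantile or cyclic loess normalization Psap was lost after injury and in transplanted injured muscle against bone marrow. For uninjured muscle against marrow, Gla and Acp5 were lost with quantile normalization, Acp5 with cyclic loess, and Gla, Acp2 and Lamp2 with median centring. With no intensity trend Ppt1 and Psap were lost after injury, and Galns, Psap, Gm2a, Lamp2 and Npc1 in transplanted injured muscle against bone marrow.

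Deviations of same-numbered arrays from the group means correlated at 0.313 for uninjured muscle and bone marrow, and at -0.032, 0.003 and -0.022 in the other comparisons. Same-numbered arrays thus deviated together in part in the first comparison only. Gapdh 3'/5' was higher on replicate 1 in both its groups (46.9 against 13.6 in uninjured muscle, 24.4 against 10.7 in bone marrow). The reason for the correlation was not tested. With the replicate number as a block, uninjured muscle against bone marrow had 3 members higher and 0 lower, and the other counts were 13 and 0, 0 and 0, and 18 and 1.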
